A study of Homo sapiens with 2 samples.

Results

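The 39 genes described here encode the enzymes, and the isoforms of each enzyme, that break down glucose to lactate, store and release glycogen, and buffer ATP through creatine phosphate and adenylate nucleotides. They were chosen by name, and each was read on every probe set that the platform annotation assigns to it alone, which gave 73 probe sets out of 54675 on the array and 39 genes out of 19775. The cells derive from HUES9, a line of human embryonic stem cells, used at passage 32; embryoid bodies, which are floating aggregates, were kept for 10 days, moved onto a fibronectin coat in chemically defined medium, and the outgrowing cells were sampled at passage 5. The SB-OG culture was grown with SB-431542, which blocks the kinase of the TGF-β, activin and nodal type I receptors, at 10 µM as embryoid bodies and at 1 µM as outgrowths. The control-OG culture received the solvent DMSO at 0.01%. For each condition 3 samples were mixed and read on 1 Affymetrix array, so n = 1 per condition, no value has a replicate error and no test between conditions was possible. The study's question was whether blocking this signalling favours mesodermal differentiation.

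Several glycolytic steps are catalysed by different gene products in different tissues. Skeletal muscle uses forms of its own, such as β-enolase and muscle creatine kinase, and muscle creatine kinase returns ATP from creatine phosphate during contraction. Glycogen phosphorylase releases glucose 1-phosphate from glycogen, and phosphorylase kinase, built of α, β, γ and calmodulin subunits, switches it on in response to calcium.

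An intensity is the linear signal of 1 probe set. A gene is given by its brightest probe set, and each difference is the log2 intensity on SB-OG less that on control-OG. The background level, the 95th percentile of 217 probe sets for receptor, hair and defensin genes assumed unused in these cells, was 27.2 on SB-OG and 32.1 on control-OG. Values below it were raised to it before differences were taken, so where 1 array alone exceeded background the fold is a lower bound. Probe sets of the same gene differed by an SD of 0.47 on the log2 scale over 4953 genes, which is a spread within this pair of arrays and not between cultures. All 11 skeletal muscle marker genes examined, among them MYOD1, MYOG and TTN, were above background on SB-OG and 7 of them on control-OG, with summed intensities of 61241 on SB-OG and 491 on control-OG. In RNA of mixed cells, more cells of a type and more RNA per cell cannot be told apart. Markers of other tissues that use some of these isoforms were also read. Of 8 heart markers 1 was above background on SB-OG and 1 on control-OG, with NKX2-5, TBX5 and MYL2 above it on neither array. Of 6 erythroid and 5 adipocyte markers none was above background on either array, with 4 of the 6 erythroid genes represented. Of 8 neuron markers 2 were above background on each array, with summed intensities of 377 on SB-OG and 253 on control-OG, and of 4 astrocyte markers only ALDH1L1 was, at 40.5 on SB-OG and 22.5 on control-OG. GFAP and RBFOX3 were above background on neither array.

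All 39 enzyme genes passed the background level on at least 1 array, 32 on both, 6 on SB-OG only and 1 on control-OG only. Among all 19775 genes 12557 passed it, 10439 on both, 1236 on SB-OG only and 882 on control-OG only. Of the 39, 7 were 2-fold or more higher in SB-OG, 11 were 2-fold or more lower, and 16 measured on both arrays lay within 2-fold. The remaining 5, FBP2, PGAM2, PHKG1, CKMT2 and AMPD1, were above background on SB-OG only, with a bound under 2-fold or no fold at all, so the size of their difference is not known. Over all 12557 genes that passed the background level on either array, the shares were 12.4% higher and 13.0% lower. At 3-fold, 7 of the 39 were higher and 3 lower, against 6.32% and 6.36% of all genes. Counted by probe set, 8 of the 65 above background were 2-fold or more higher and 12 lower, against 12.7% and 12.0% of the 23517 probe sets of single genes above background. Rescaling SB-OG on the spiked hybridisation controls moved the median of all genes to 0.45. On that scaling 10 of the 39 were higher and 3 lower, against 24.3% and 7.23% of all genes. The 3 lower ones were LDHA at -2.36, ALDOC at -1.84 and PHKA1 at -1.53. PFKM, FBP2, PGAM2, ENO3, PYGM, PHKA1, PHKG1, CKM, CKMT2, AMPD1 and AK1 were taken as the muscle isoforms, by main or name-giving site. HK2 at -1.21, LDHA at -2.84, ALDOA at -0.15 and GYS1 at 1.79, which muscle also uses, were counted among the other members. Of the 11 muscle isoforms, 4 were at least 2-fold higher and 1 was lower. Their median difference of 0.78 depends on the floor and the scaling, being 2.33 without a floor, 1.54 with a pseudocount of 16 and 1.25 on the hybridisation controls. The other 28 members had 3 higher and 10 lower, or 4 higher and 2 lower after that rescaling. Their median was -0.37, against 0 over all genes, and turned to 0.10 after the rescaling, against 0.45 over all genes. The 6 members above background on SB-OG only were all muscle isoforms, and so was the 1 member above background on control-OG only. Such genes passed the level only where they were high, so a difference between the arrays is built into them.

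**Figure D1:**
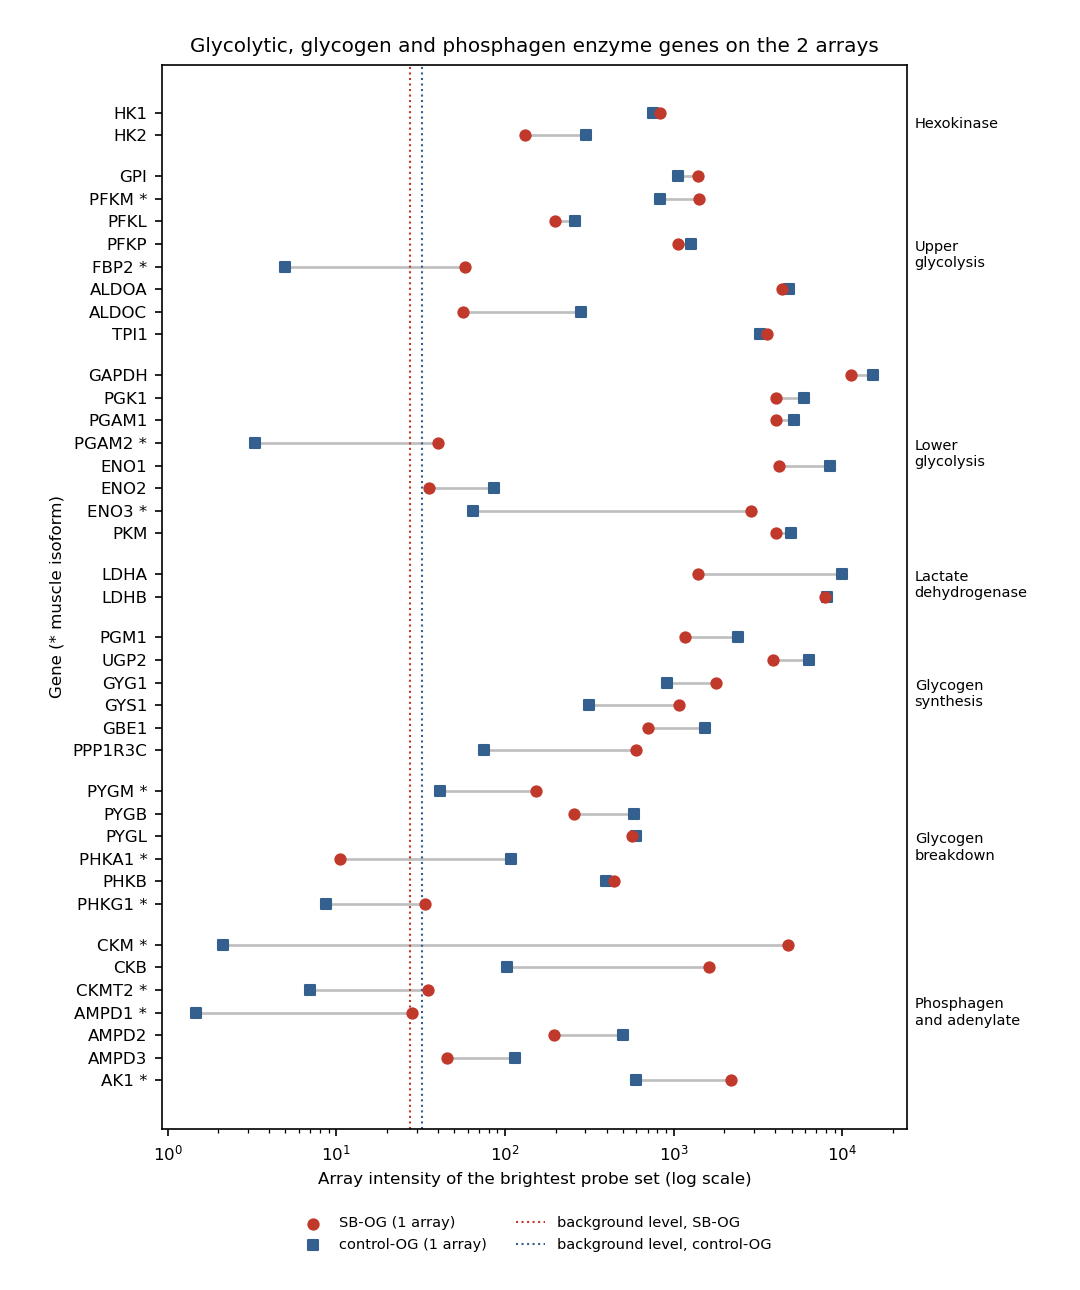
Array intensity on a log axis for each of the 39 genes, by its brightest probe set, on SB-OG (circles) and control-OG (squares), 1 array each and without error bars; dotted lines mark the background levels of 27.2 and 32.1. The muscle isoforms, starred, include CKM at 4785 on SB-OG and 2.15 on control-OG, and PHKA1 at 10.5 on SB-OG and 109 on control-OG.

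The start-site regions of the genes with the largest differences of either sign among the muscle isoforms, CKM, ENO3 and PHKA1, and of CKB, the second creatine kinase, are shown here because these genes carry the isoform differences described next. Sequences are from RefSeq on GRCh38.p14 and run 5′ to 3′ along the gene, from 250 bases before the start site through the 50 bases after it. Capitals mark CANNTG, the E-box core that myogenic basic helix-loop-helix factors and many others of that class bind. ENO3 has 2 start sites in the table, PYGM is not in it, and CKB and PHKA1 were chosen after their values were seen.
CKM, chr19:45322826-45323125, minus strand: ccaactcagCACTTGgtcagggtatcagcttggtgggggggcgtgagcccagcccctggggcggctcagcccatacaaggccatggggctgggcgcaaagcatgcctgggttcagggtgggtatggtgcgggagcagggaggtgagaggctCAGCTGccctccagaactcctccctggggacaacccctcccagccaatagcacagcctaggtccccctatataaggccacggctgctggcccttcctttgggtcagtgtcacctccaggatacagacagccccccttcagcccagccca
ENO3, chr17:4950302-4950601, plus strand: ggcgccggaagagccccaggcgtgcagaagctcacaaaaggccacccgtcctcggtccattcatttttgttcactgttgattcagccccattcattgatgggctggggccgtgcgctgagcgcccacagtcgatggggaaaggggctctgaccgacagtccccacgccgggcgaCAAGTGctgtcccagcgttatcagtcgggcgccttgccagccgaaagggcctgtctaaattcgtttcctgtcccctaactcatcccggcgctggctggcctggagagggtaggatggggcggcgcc
ENO3, chr17:4950869-4951168, plus strand: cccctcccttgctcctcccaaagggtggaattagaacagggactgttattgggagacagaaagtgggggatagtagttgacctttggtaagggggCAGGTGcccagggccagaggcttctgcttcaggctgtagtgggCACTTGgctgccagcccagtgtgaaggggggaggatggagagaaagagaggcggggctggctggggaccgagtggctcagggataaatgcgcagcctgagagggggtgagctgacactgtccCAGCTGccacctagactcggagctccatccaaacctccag
CKB, chr14:103522781-103523080, minus strand: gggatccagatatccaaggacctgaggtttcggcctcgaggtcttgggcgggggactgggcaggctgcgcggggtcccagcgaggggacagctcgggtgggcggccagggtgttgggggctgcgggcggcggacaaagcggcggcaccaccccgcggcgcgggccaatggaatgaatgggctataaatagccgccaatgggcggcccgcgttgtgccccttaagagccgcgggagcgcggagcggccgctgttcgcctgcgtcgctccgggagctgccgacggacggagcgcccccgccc
PHKA1, chrX:72714257-72714556, minus strand: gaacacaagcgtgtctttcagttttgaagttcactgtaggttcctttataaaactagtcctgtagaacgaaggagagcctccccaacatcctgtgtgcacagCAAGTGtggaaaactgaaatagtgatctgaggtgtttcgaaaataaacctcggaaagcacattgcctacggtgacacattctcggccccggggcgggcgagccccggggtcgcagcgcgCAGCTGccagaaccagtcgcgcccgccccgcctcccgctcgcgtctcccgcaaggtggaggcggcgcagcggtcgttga

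The windows shown are few and were chosen with the differences known, so they cannot relate letters to direction. CKM held CANNTG at 2 places and the form CAGCTG, contained in CANNTG, at 1 of them, 99 bases before the start site. ENO3 held 1 CANNTG in the upstream window and 3 in the downstream one, of which 1 was CAGCTG. PHKA1, lower in SB-OG, also held 2, of which 1 was CAGCTG, whereas CKB, higher in SB-OG, held none. Instead the CKB window had 1 match to the MEF2 motif, overlapping TATAAA, 70 bases before its start. Searched on both strands of all 35116 windows in the table, CANNTG occurred in 68.7%, CAGCTG in 17.9%, the MEF2 motif in 2.99% and TATAAA in 11.5%. The 18 windows of 10 muscle isoforms held CANNTG in 66.7%, CAGCTG in 33.3%, MEF2 in 11.1% and TATAAA in 33.3%. The 52 windows of the other 28 members held them in 59.6%, 23.1%, 3.85% and 5.77%. The 8 windows of 6 members higher in SB-OG held them in 75%, 37.5%, 25% and 25%. The 21 windows of the 11 lower members held them in 71.4%, 33.3%, 0% and 9.52%. These shares rest on few windows and were not tested. Windows of 1 gene can overlap, and a match describes letters, not a bound site.

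Creatine kinase showed the largest difference among the members. CKM, the cytosolic muscle form, had an intensity of 4785 on SB-OG and 2.15 on control-OG, at least 149-fold higher in SB-OG. CKB, the form of brain and many other tissues, was at 1616 on SB-OG and 103 on control-OG, 15.8-fold higher, so both cytosolic forms differed in the same direction. CKMT2, the sarcomeric mitochondrial form, was close to background at 34.9 on SB-OG and 6.96 on control-OG. Its bound of 1.09-fold leaves the size of the difference unmeasured. AK1, the adenylate kinase abundant in muscle, was at 2177 on SB-OG and 600 on control-OG, 3.63-fold higher. By its other probe set AK1 was at 417 on SB-OG and 36.5 on control-OG, 11.4-fold higher, so both probe sets had one direction and differed in size.

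AMP deaminases convert AMP to IMP in the purine nucleotide cycle. AMPD1, the skeletal muscle form, was just above background at 28.1 on SB-OG and at 1.47 on control-OG, which allows no fold. AMPD2 was at 197 on SB-OG and 504 on control-OG, 2.56-fold lower in SB-OG. AMPD3, the form first described in red cells, was at 45.1 on SB-OG and 115 on control-OG, 2.54-fold lower. On the hybridisation control scaling AMPD2 and AMPD3 were at -0.88 and -0.87, under 2-fold, and no difference from the dim muscle form could be measured.

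Enolase had the widest split among pairs of isoforms measured on both arrays, though the mean of all probe sets brought it to 3.34 against ENO1 and 4.01 against ENO2. ENO3, the β-enolase of muscle, was at 2887 on SB-OG and 64.8 on control-OG, 44.5-fold higher, and 0.342% of all genes had a difference as high. Its other probe set was near background, at 28.6 on SB-OG and 5.8 on control-OG. ENO1, the widely used α form, was at 4186 on SB-OG and 8450 on control-OG, 2.02-fold lower. A further bright ENO1 probe set gave 3462 on SB-OG and 7146 on control-OG, whereas the 2 dim ones differed by 0.01 and -0.35. ENO2, the neuronal γ form, was at 35.5 on SB-OG and 85.7 on control-OG, 2.42-fold lower. Of the 8 neuron markers, with 7 represented, those above background were SYT1 and SNAP25. SYT1 was at 261 on SB-OG and 116 on control-OG, a difference of 1.18. SNAP25 was at 63.8 on SB-OG and 67.7 on control-OG, a difference of -0.08. A relation of these markers to the ENO2 value was not tested.

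The other steps of lower glycolysis differed less. GAPDH was at 11238 on SB-OG and 15268 on control-OG, and its 6 probe sets, 3 of them array controls, lay between -0.48 and -0.38. The control probe set at the 3′ end divided by that at the 5′ end, which tracks RNA integrity, gave 0.958 on SB-OG and 0.995 on control-OG. On the hybridisation control scaling GAPDH was at 0.03, so the direction of this small difference depends on the scaling. PGK1, which makes the ATP-yielding step after GAPDH, was at -0.55 by its brightest probe set and -0.43 to -0.12 by 3 others. PKM, the pyruvate kinase whose splice forms these probe sets do not separate, was at 4019 on SB-OG and 4977 on control-OG. Phosphoglycerate mutase had a bright and a dim isoform. PGAM1, the widely used form, was at 4053 on SB-OG and 5152 on control-OG, a difference of -0.35. PGAM2, the muscle form, was at 40 on SB-OG and 3.29 on control-OG, which gives a bound of 1.25-fold higher. PGAM1 and PKM turned positive, at 0.13 and 0.17, on the hybridisation control scaling.

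Lactate dehydrogenase went against the muscle isoforms. LDHA, the subunit that predominates in fast muscle and in cells that export lactate, was at 1392 on SB-OG and 9938 on control-OG, 7.14-fold lower in SB-OG by its only probe set. Only 1.90% of all genes had a difference as low. LDHB, the subunit that predominates in heart, was at 7874 on SB-OG and 8121 on control-OG, and its other probe set differed by -0.06. The LDHB difference of -0.04 was within the spread between probe sets and turned positive under each of the 3 other scalings.

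In upper glycolysis 1 gene measured on both arrays was past 2-fold. ALDOC, the aldolase of brain, was at 56.4 on SB-OG and 281 on control-OG, 4.99-fold lower. ALDOA, the form of muscle and most other tissues, was at 4378 on SB-OG and 4861 on control-OG, with its other probe sets at -0.14 and 0.22. Neither direction can be given to ALDOA, since its sign differed between probe sets and scalings.

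Phosphofructokinase, the main control point of the pathway, had no isoform 2-fold apart between the arrays. PFKM, the muscle subunit, was at 1416 on SB-OG and 826 on control-OG, 1.71-fold higher. PFKL, the liver subunit, was at 198 on SB-OG and 261 on control-OG, with a second probe set at -0.42 beside -0.40. PFKP, the platelet subunit, was at 1064 on SB-OG and 1259 on control-OG, and both PFKL and PFKP turned positive on the hybridisation control scaling. FBP2, the muscle fructose bisphosphatase that runs the opposite reaction, was at 57.7 on SB-OG and 4.95 on control-OG, at least 1.80-fold higher. The isomerases GPI and TPI1 differed by 0.40 and 0.12, and TPI1's other probe sets lay at 0.51 and, as a bound, -0.65.

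Hexokinase commits glucose to the cell. HK1, the widely used form, was at 830 on SB-OG and 756 on control-OG. HK2, the insulin-responsive form of muscle and fat that growing cells also use, was at 131 on SB-OG and 304 on control-OG, 2.31-fold lower. That value rests on 1 of 3 probe sets, because the dim ones differed by 0.44 and, as a bound, 0.51, and the mean of the 3 was -0.09.

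**Figure D2:**
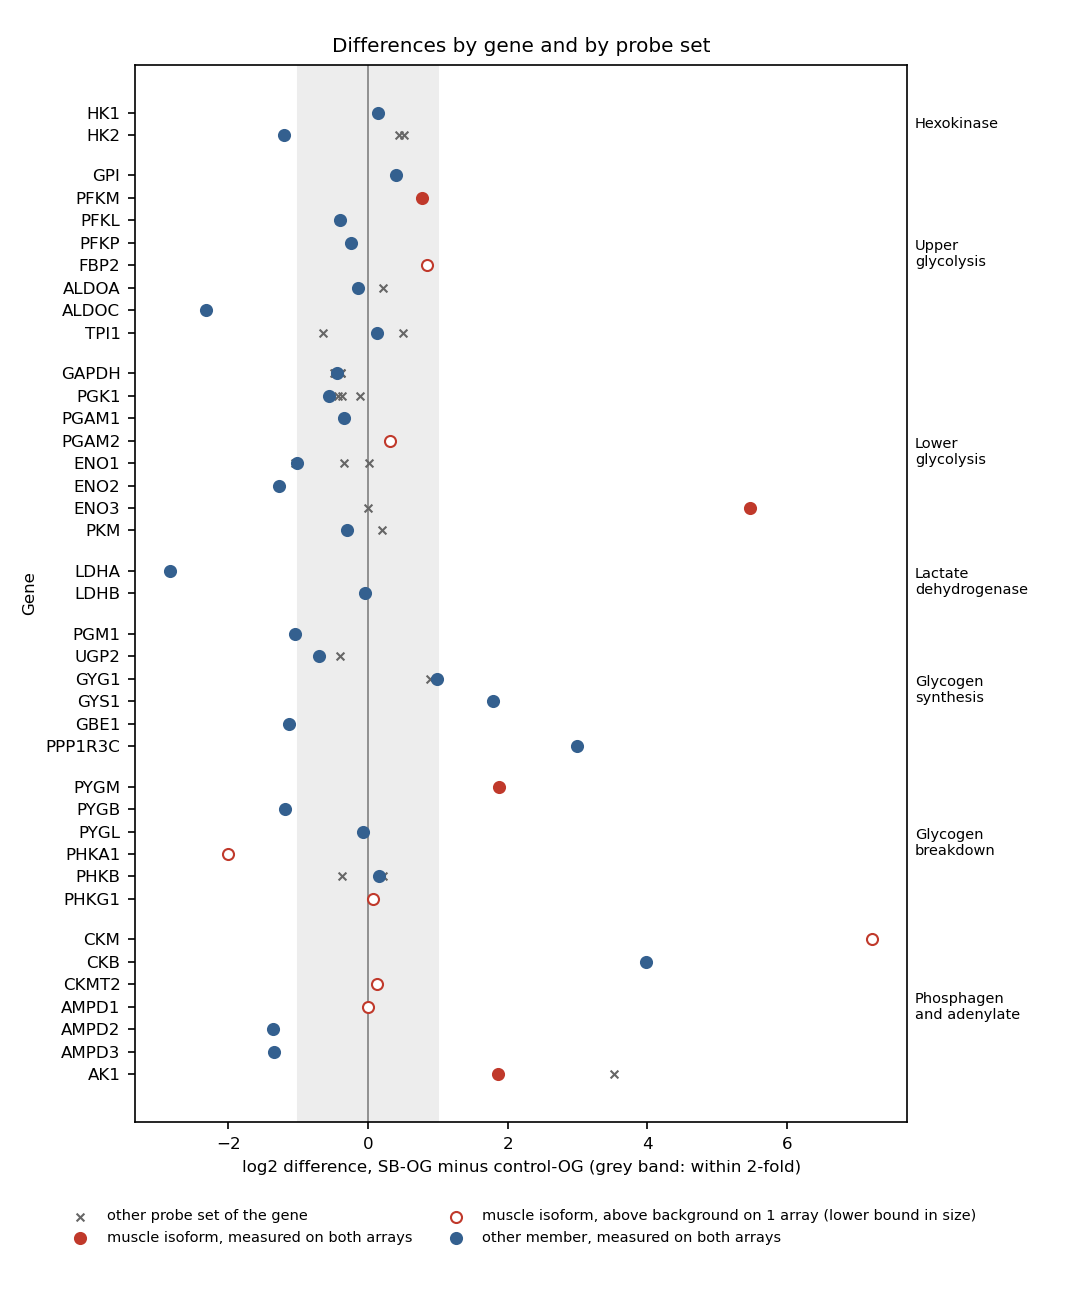
log2 difference, SB-OG minus control-OG, for each gene by its brightest probe set (circles, open where only 1 array was above background) and by every other probe set above background on at least 1 array (crosses); the grey band is the range within 2-fold, and n = 1 array per condition. CKM, ENO3 and CKB stand at the right at 7.22, 5.48 and 3.98, LDHA at the left at -2.84, and the crosses of HK2 and ENO3 fall inside the band. The ENO3 cross was set at 0 because that probe set allows no fold.

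Glycogen synthesis genes went both ways. GYS1, the glycogen synthase of muscle and most tissues other than liver, was at 1082 on SB-OG and 313 on control-OG, 3.45-fold higher. PPP1R3C, which brings protein phosphatase 1 to glycogen and so favours the active synthase, was at 600 on SB-OG and 75.4 on control-OG, 7.95-fold higher. GYG1, the glycogenin that primes the chain, was at 1791 on SB-OG and 908 on control-OG, just under the threshold at 1.97-fold, with its other probe set at 0.89. The genes that prepare and branch the chain had negative differences. PGM1, which turns glucose 6-phosphate into glucose 1-phosphate, was at 1166 on SB-OG and 2415 on control-OG, 2.07-fold lower. GBE1, the branching enzyme, was at 702 on SB-OG and 1541 on control-OG, 2.19-fold lower. UGP2, which makes UDP-glucose, was at 3883 on SB-OG and 6325 on control-OG, a difference of -0.70. GYS1, PGM1 and GBE1 had 1 probe set each. On the hybridisation control scaling PGM1 was at -0.57 and GBE1 at -0.66, both under 2-fold, and UGP2 at -0.23. PGM1 was also just under 2-fold on the quantile scaling, at -0.97, and on the median scaling, at -0.998.

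Glycogen phosphorylase divided by isoform. PYGM, the muscle form, was at 152 on SB-OG and 41.3 on control-OG, 3.68-fold higher. PYGB, the brain form, was at 257 on SB-OG and 583 on control-OG, 2.27-fold lower. PYGL, the liver form, was at 567 on SB-OG and 595 on control-OG, with only 3 of 7 hepatocyte markers above background on either array. Only the muscle form was therefore at least 2-fold higher among the phosphorylases. PYGM was close to background on control-OG, and with the background at the 99th percentile its difference was a bound of 1.55. On the hybridisation control scaling PYGB was at -0.71, under 2-fold, and PYGL at 0.41.

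Phosphorylase kinase subunits went different ways. PHKA1, the muscle α subunit, was at 10.5 on SB-OG and 109 on control-OG, lower in SB-OG by at least 4.01-fold. It was the single gene past 2-fold in that direction among those counted as muscle isoforms, which leave out HK2 and LDHA. Its second probe set was below background on both arrays, at 1.54 on SB-OG and 27.2 on control-OG. With the background taken at the 99th percentile the PHKA1 difference shrank to -0.51, so the size rests on dim signals. PHKG1, the muscle catalytic γ subunit, was at 33.6 on SB-OG and 8.68 on control-OG, a bound of 1.05-fold higher, or 1.95 on the log2 scale without a floor. PHKB, the β subunit shared by tissues, was at 441 on SB-OG and 397 on control-OG, with other probe sets from -0.37 to 0.22.

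Setting the difference of one isoform against that of another of the same step avoids comparing levels of different probe sets and is not moved by a common rescaling where both are measured on both arrays. Of 18 such pairs, 15 had both genes above background. In 10 the first-named isoform was at least 1 higher on the log2 scale, in 3 at least 1 lower and in 2 in between. The 10 are not separate observations, because PFKM, ENO3, PYGM and AMPD1 each stand first in more than 1 of them. No share over gene pairs in general was computed. ENO3 exceeded ENO2 by 6.75 and ENO1 by 6.49. CKM exceeded CKB by at least 3.24, or 7.14 without a floor. PYGM exceeded PYGB by 3.06 and PYGL by 1.95, and PFKM exceeded PFKL by 1.17 and PFKP by 1.02. ALDOA exceeded ALDOC by 2.17 because ALDOC was lower. The pairs of the opposite sign were LDHA against LDHB at -2.79, PHKA1 against PHKA2 at -1.92 as a bound, and HK2 against HK1 at -1.35. PHKA2 is the liver α subunit, and its other probe sets stood at -0.69 and 0.77. With the background at the 99th percentile PHKA1 against PHKA2 was at -0.43. By the mean of all probe sets HK2 against HK1 was at -0.22. AMPD1 was set at 0 for lack of a fold, so its 1.36 and 1.35 over AMPD2 and AMPD3, counted among the 10, come from those genes alone.

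**Figure D3:**
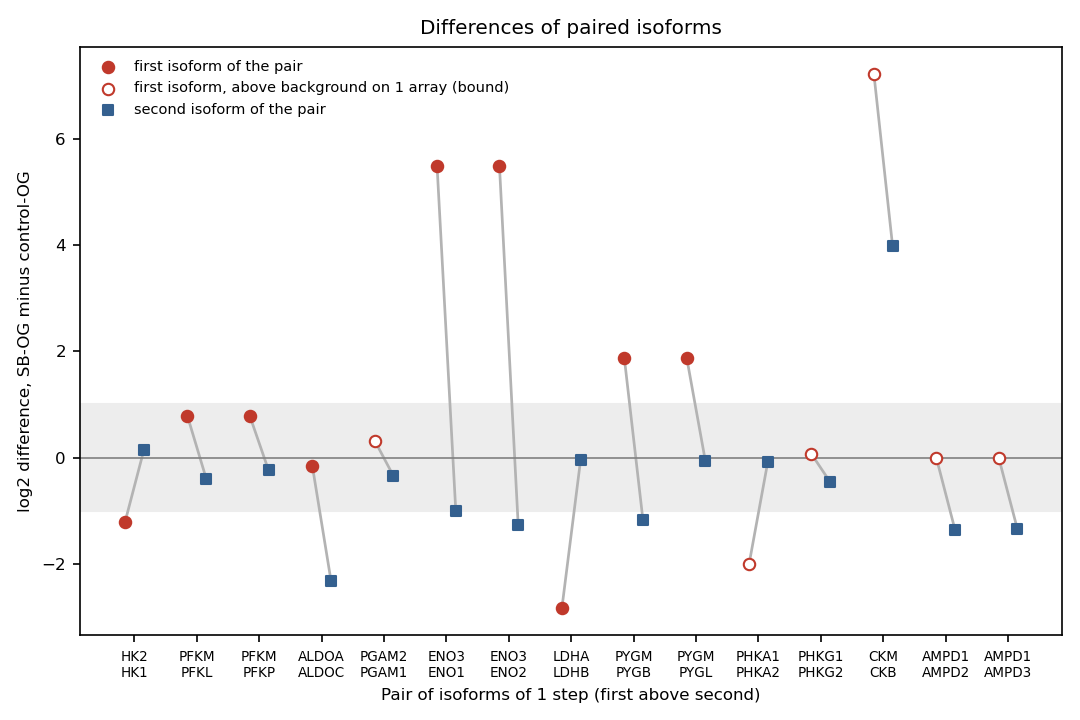
log2 difference, SB-OG minus control-OG, for 15 pairs of isoforms of 1 step, the first isoform (circle, open where it was above background on 1 array) left of the second (square), with the range within 2-fold in grey and 1 array per condition. The lines fall from left to right for 12 pairs and climb for HK2, LDHA and PHKA1 against their counterparts.

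Other genes of these pathways were taken from a list of 61, of which 10 lacked a probe set of their own and 35 were above background on at least 1 array. Among the 35, 4 were at least 2-fold higher and 6 at least 2-fold lower, with a median of 0.05. These are 11.4% and 17.1%, against 12.4% and 13.0% of all genes. On the hybridisation control scaling 9 were higher and 3 lower, against 24.3% and 7.23% of all genes. GATM, the amidinotransferase that begins creatine synthesis, was at 2028 on SB-OG and 22.2 on control-OG, at least 63.2-fold higher, with a second probe set at 5.73. GAMT, the methyltransferase that completes it, was at 285 on SB-OG and 174 on control-OG, with other probe sets at 1.58 and 1.70. The creatine transporter SLC6A8 went the other way, at 103 on SB-OG and 258 on control-OG, 2.52-fold lower, with its other probe sets at -0.94 and -0.58.

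Among transporters of glucose, SLC2A1, the widely used GLUT1, was at 155 on SB-OG and 1058 on control-OG, 6.83-fold lower with another probe set at -0.82. SLC2A4, the insulin-responsive GLUT4 of muscle and fat, was above background on neither array, nor was PDK4, a kinase that closes pyruvate entry to mitochondria. The pyruvate carrier subunits MPC1 and MPC2 differed by 0.88 and 0.82. None of the measured PFKFB or pyruvate dehydrogenase kinase genes was 2-fold apart.

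Further partner genes lower in SB-OG were PPP1R3B, a glycogen-targeting subunit best known from liver, 3.48-fold, GAA, the lysosomal glucosidase that digests glycogen, 2.94-fold, G6PC3, the widely used glucose 6-phosphatase, 2.41-fold, and BPGM, the bisphosphoglycerate mutase of red cells, 2.11-fold. PGM5, a phosphoglucomutase relative found at muscle adhesion sites, was 3.90-fold higher, AK5 2.09-fold and GYG2, the second glycogenin, 2.06-fold. The dimmer PGM5 probe set stood at 0.81.

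**Figure D4:**
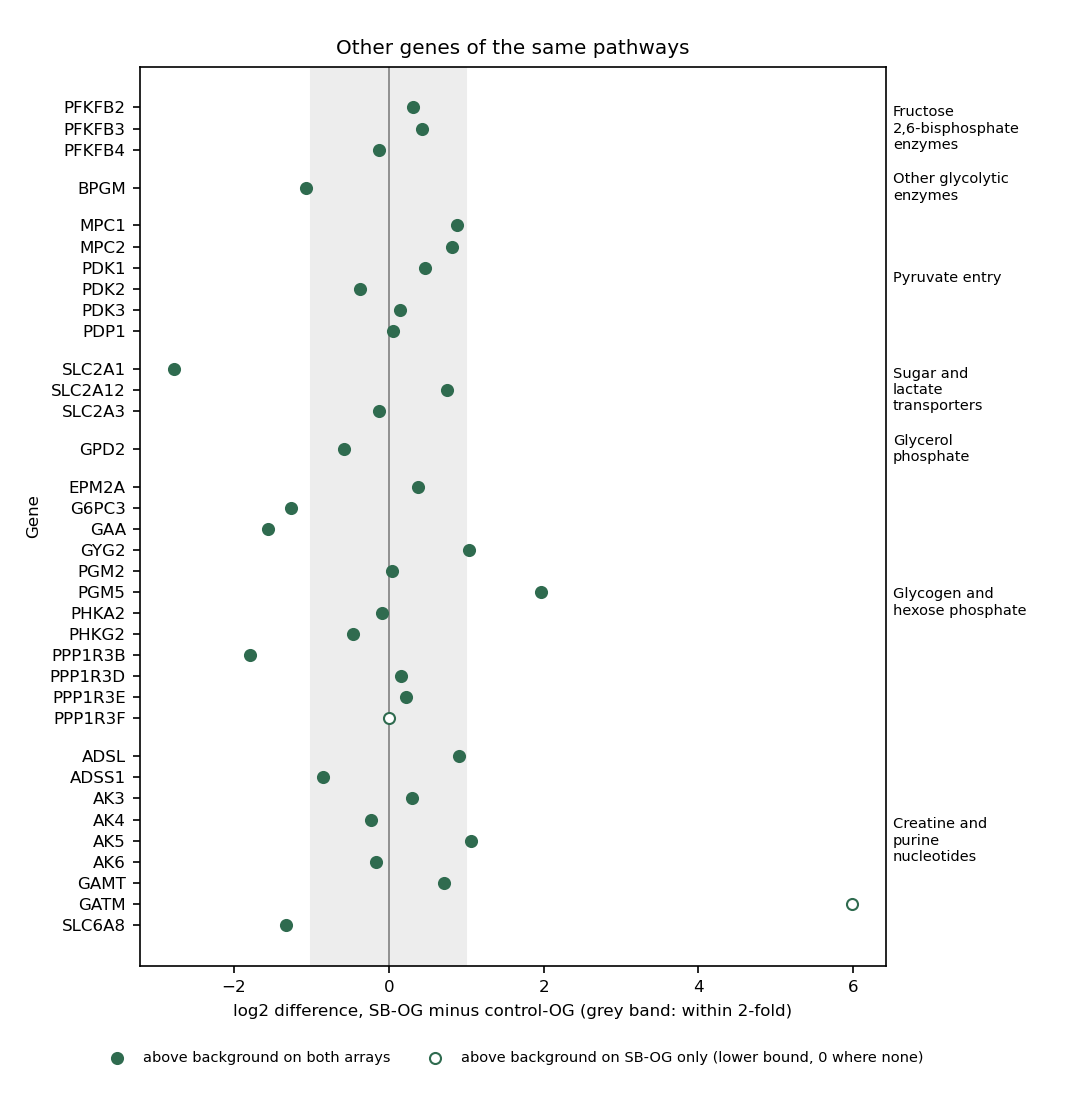
log2 difference, SB-OG minus control-OG, for the 35 other pathway genes above background on at least 1 array, by brightest probe set and grouped by role, with the range within 2-fold in grey and 1 array per condition. GATM lies far to the right at a lower bound of 5.98, and SLC2A1 lies farthest left at -2.77.

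Genes of other programs differed alongside these enzymes. Many glycolytic genes are known targets of the hypoxia-inducible factors. Those named here were picked with their values known and are not a full list. LDHA, ALDOC, ENO1, HK2 and SLC2A1 were lower in SB-OG by 2-fold or more. ENO1 and HK2 fell under 2-fold on the hybridisation control scaling, at -0.54 and -0.73. By the mean of all probe sets ENO1 and HK2 were at -0.60 and -0.09. PGK1 at -0.55, GAPDH at -0.44, ALDOA at -0.15, TPI1 at 0.12, PFKFB3 at 0.43 and PDK1 at 0.47 were within 2-fold. GYS1 was higher at 1.79. Of 9 measured genes of the hypoxia response outside glycolysis, 5 were lower in SB-OG by 2-fold or more and 1 was higher. Their summed intensities were 5527 on SB-OG and 10420 on control-OG. ANKRD37 was at 102 on SB-OG and 1202 on control-OG and VEGFA at 426 on SB-OG and 1432 on control-OG, while KDM3A was at 711 on SB-OG and 351 on control-OG. All 6 fibroblast markers were lower by 2-fold or more in SB-OG, with summed intensities of 27760 on SB-OG and 69708 on control-OG. Of 5 epithelial markers 3 were lower and 1 was higher, with sums of 450 on SB-OG and 16515 on control-OG. The higher one, the epithelial cadherin CDH1, was at 82.8 on SB-OG and 26.9 on control-OG. Beside these counts, 13.0% of all genes were lower and 12.4% higher. The hybridisation control scaling adds 0.48 to each difference measured on both arrays. That would bring COL1A1 from -1.43, COL1A2 from -1.13, PDGFRA from -1.39 and DCN from -1.16 to under 2-fold, but not THY1 or FAP. P4HA1 at -1.26 and DDIT4 at -1.31, of the hypoxia response, would also fall under 2-fold. The part of these changes in the enzyme values was not tested.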

How the data were processed

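RNA of HUES9 outgrowths, 3 samples mixed per condition, was read on 1 array each for SB-OG and control-OG, grouped by the sample titles. The authors deposited 1 linear intensity per probe set and array; the software behind it is not given in the sources used. After trimming 2% of probe sets at each end, the mean was 150.02 on SB-OG and on control-OG, so these intensity values appear to have been brought to a common level by the authors, which hides any change in total RNA. The number of arrays limits the precision. Names of probe sets come from the 2016 platform annotation, with symbols updated by gene ID through a GRCh38.p14 gene table, which held 19735 of 19775 genes. Probe sets with several genes were left out, including 1 shared by AMPD3. Each gene was read on the probe set brightest by mean log2 over both arrays. Of the 39 genes, 20 had 1 probe set and 6 had probe sets of both signs. Where SB-OG alone exceeded its background but stayed under the control-OG level, the gene got a difference of 0 and no fold.

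Genes were counted at 2-fold, with no test. The named genes were all 39 members, the pathway genes at least 2-fold apart and, for sequences, the muscle isoforms with the largest positive differences. Any other gene was named with its values known. The members and lists were chosen with earlier results of these data known. The counting code was run on simulated data, a copy of the control-OG array with added noise. Known changes well past 2-fold were placed in genes well above background. That run cannot tell how the counts fare for dim genes or for differences near 2-fold. Alternatives were other scalings (quantile, median, hybridisation controls), other probe set rules, other floors, a pseudocount of 16 and a 3-fold threshold. Some members, such as GAPDH, PGK1 and ENO1, have near-identical pseudogenes whose share of the signal is unknown. Protein sequences were not used here. The tools were numpy 2.4.6, scipy 1.17.1, pandas 2.3.3 and matplotlib 3.10.9 under Python 3.11.15.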

Additional observations from a re-analysis of the deposited data

How the results depend on the processing

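The 18 genes at least 2-fold apart kept their sign under every alternative that gave them a value, and 10 to 18 of them stayed past 2-fold. Without a floor, and also with a pseudocount of 16, 12 of the 39 genes were at least 2-fold higher, 9 of them muscle isoforms. Dim control-OG values were then used as given, and 15.9% and 13.1% of all genes were higher on these settings. Scaling on the hybridisation controls left 3 genes lower, 2 of them outside the muscle isoforms, and gave 9 pathway genes higher and 3 lower. Over all genes 24.3% were then higher and 7.23% lower. On that scaling 8 members within 2-fold turned positive. With only probe sets specific by name, which 25 of the 39 genes had above background, 5 were higher and 6 lower, against 13.5% and 12.6% of all genes. Of the 6 lower ones, 5 were outside the muscle isoforms. Many pairs, such as CKM against CKB and PFKM against PFKL, then had no value. Of those with a value, 4 had the first isoform at least 1 higher, including AMPD1, set at 0, against AMPD2. At 3-fold, 7 genes were higher and 3 lower, 2 of the lower ones outside the muscle isoforms, with 2 pathway genes higher and 2 lower. The shares of all genes at 3-fold were 6.32% higher and 6.36% lower. With the background at the 99th percentile no muscle isoform was lower (0 of 6), ENO2 was at -0.16 and AMPD3 at -0.58. Among all genes above that background 12.7% were higher and 11.2% lower. ENO3 ranged from 2.74 with the mean of its probe sets, the dim one set at 0 for lack of a fold, to 5.95. ENO1 ranged from -1.01 to -0.35, HK2 from -1.30 to -0.09, AK1 from 1.83 to 3.52 and CKM from 6.52 to 11.1. The cause was not tested where none is named. No paired analysis was possible because each condition had 1 array. The number of arrays and dim signals, as for PGAM2, PHKG1, CKMT2 and AMPD1, limit what can be told apart.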
